A study of Mus musculus with 39 samples.

Results

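Fraction 21 was compared with fractions 18 and 19 of the same sucrose gradient, at the dense end of the gradients by which mouse liver homogenate was separated. The members are 6 libraries of the 39 in the series, namely fractions 18, 19 and 21 of gradients 1 and 2, and they are defined by fraction number, not by a measured value. The gradients were loaded with liver homogenate from wild-type females of FVB, an inbred mouse strain. The methods call the 2 gradients independent biological replicates, while the age of the mice and the number of mice per gradient are not given in the sources used here. The livers were homogenized with beads in buffered sucrose without detergent, and nuclei were spun out before the homogenate was layered on the gradient. No animal was treated and no gene was altered, so the libraries differ only in the gradient and in the fraction. Of the 13230 genes in the tables of both gradients, 10778 reached a mean TPM of 1 over the 6 libraries and are described here. TPM gives the share of an RNA among all RNAs of a library, corrected for its length. The difference of a gene is log2(TPM + 1) in fraction 21 minus the mean of log2(TPM + 1) in fractions 18 and 19, and a negative value is lower in fraction 21. The 2 gradients are the replicates, since fractions of 1 gradient come from the same load of homogenate. The words highest and lowest refer below to fractions 18, 19 and 21 of a gradient, and not to its other fractions.

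In velocity sedimentation, particles that are larger or denser travel further into the sucrose. An mRNA that carries many ribosomes, or that is part of another large assembly, therefore lies deeper than a free mRNA or one with few ribosomes. The study reports that a cluster rich in RNAs for secreted and endoplasmic reticulum (ER) proteins appeared less dense here than by ribosome profiling. The liver makes most plasma proteins on ribosomes bound to the ER, while its enzymes of intermediary metabolism, its ribosomal proteins and most of its mitochondrial proteins are made on ribosomes of the cytosol.

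Every one of the 6 libraries summed to between 999003 and 999183 TPM, and between 10532 and 10750 genes exceeded 1 TPM. TPM keeps no read numbers, so the depth behind a value is unknown. Within a gradient the libraries were much alike. In gradient 1, Pearson's r of log2(TPM + 1) over the genes was 0.961 between fractions 18 and 19, 0.961 between fractions 18 and 21 and 0.956 between fractions 19 and 21. In gradient 2 the corresponding values were 0.983, 0.982 and 0.982. Fraction 21 was therefore about as far from fractions 18 and 19 as these were from each other. Hepatocyte markers were abundant throughout, with 14 of 14 tested and a summed level of 62767 and 93389 TPM in the 2 libraries of fraction 21 against 70624 to 77708 TPM in fractions 18 and 19. The 45S precursor of ribosomal RNA, Rn45s, took between 1.78% and 6.47% of TPM.

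The differences were small. mRNAs for ribosomal proteins, for subunits of the respiratory chain and for other short proteins had lower median values in fraction 21 of both gradients, mRNAs for enzymes of cytosolic metabolism had higher ones, and 1 single gene passed the test described below. In 9869 of the 10778 genes (91.6%) the mean difference of the 2 gradients was within 0.5 of 0, and its 5th and 95th percentiles were -0.54 and 0.39. The median difference over all genes was -0.029 in gradient 1 and -0.050 in gradient 2. The SD of the differences over genes was 0.56 in gradient 1 and 0.36 in gradient 2. For the step from fraction 18 to fraction 19, the SD was 0.61 and 0.40. The differences also had little in common between the gradients. The direction was the same in both for 5775 genes (53.6%), and Spearman's rho across the 10778 genes was 0.077. Among the 1282 genes at 100 TPM or more on average, rho was 0.16. Genes are not independent replicates, and these coefficients are descriptions.

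**Figure D1:**
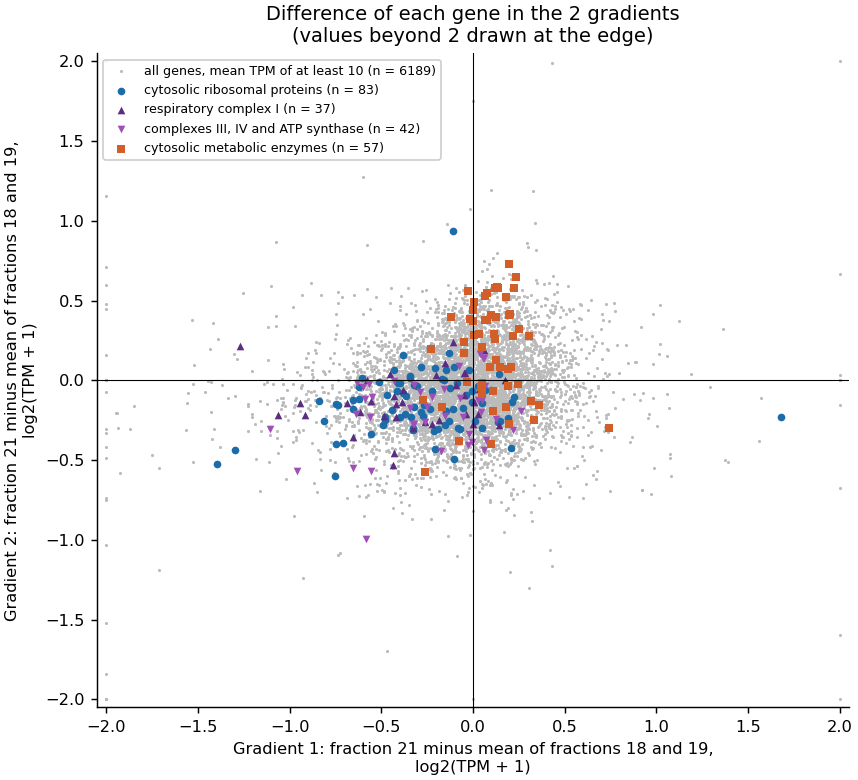
Difference between fraction 21 and the mean of fractions 18 and 19 on the log2(TPM + 1) scale, gradient 1 on the x axis and gradient 2 on the y axis, 1 point per gene of 10 TPM or more on average (6189 genes, gray), with 4 gene lists in color. The gray points form a round cloud about 0, while the points of ribosomal proteins and of the respiratory chain lie mainly to the lower left and those of cytosolic metabolic enzymes mainly above 0.

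By the test across all genes (limma on the 2 within-gradient differences, Benjamini-Hochberg adjustment), 1 gene differed at an adjusted p under 0.05, or 0.00928% of those tested, and it was higher in fraction 21. The unadjusted p was under 0.05 for 650 genes (6.03%), of which 168 (1.56%) were higher and 482 (4.47%) lower in fraction 21. After quantile normalization these numbers were 622 in all and 307 higher, so the excess of lower genes depended on the scale. The next smallest adjusted p was 0.17, and a fit on 2 differences has 1 residual degree of freedom per gene. All other genes named below therefore did not pass the test, and their values are given as descriptions. The 1 gene is Hist2h2aa2 (chromosome 3, 96239749 to 96240276, minus strand, GRCm38), which encodes a core histone H2A of the replication-dependent family. Its TPM in fractions 18, 19 and 21 was 0, 0 and 18.2 in gradient 1 and 3.08, 0 and 20.1 in gradient 2, so both values of fraction 21 exceeded the other 4. The mean difference was 3.83 (SE 0.29, adjusted p = 0.041 by limma), where SE is limma's moderated standard error of the mean of the 2 gradients. Its mean over the 4 libraries of fractions 18 and 19 was under 1 TPM, so the gene passed the filter only through fraction 21, where it is high, and the call is no independent support for a difference. The call was lost with a pseudocount of 0.1 (adjusted p = 0.065), against fraction 18 alone (0.48) or fraction 19 alone (0.057), without the filter (0.79), without the trend (0.66), with the 6 libraries entered separately (0.66) and without the gradient as block (1.00). The assignment of these reads is uncertain. The neighboring gene Hist2h2aa1 has a coding sequence of 393 nt including the stop codon with 0 mismatches to that of Hist2h2aa2, and its TPM was 501, 421 and 306 in gradient 1 and 318, 274 and 254 in gradient 2. For the sum of both genes the difference was -0.50 in gradient 1 and -0.11 in gradient 2, the opposite direction.

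A difference of at least 1 in the same direction in both gradients was found for 3 genes higher in fraction 21 (0.0278%) and for 22 lower (0.204%). The 3 were Mir3061, Hist2h2aa2 and 1110046J04Rik, and all 3 were listed at 0 in at least 1 of the 6 libraries, as were 16 of the 22. Of the 3, 2 (Hist2h2aa2 and 1110046J04Rik) averaged under 1 TPM in fractions 18 and 19 and passed the filter only through fraction 21, and 16 of the 22 averaged under 1 TPM in fraction 21 and passed only through fractions 18 and 19, so these counts rest largely on genes admitted by the group where they are high. Of the 22 lower genes, 8 averaged 10 TPM or more. These were 4 microRNA loci, the histone genes Hist1h2bk and Hist1h2bl, the minor spliceosomal RNA Rnu12 and the small RNA Rn4.5s, so that short RNAs made up the whole set.

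The microRNA loci among them are written out here because they gave most of the largest differences among genes that averaged 10 TPM or more. A microRNA is cut from a hairpin precursor and pairs with target mRNAs mainly through its seed, bases 2 to 8, shown in capitals. The sequences are the mature forms in RefSeq (GRCm38.p6). No seed occurred more than once among them.
miR-3061-5p: cAGUGGGCcgugaaagguagcc
miR-3061-3p: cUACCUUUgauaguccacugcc
miR-9769-5p: aGGCACAGaauuaggcccgacc
miR-9769-3p: uAGGGUCUguucuguguccucc
miR-568: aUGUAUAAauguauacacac
miR-7652-5p: uAAGGGCAcagggauuucaggc
miR-7652-3p: uCUGGCUUuccuguggcuucu
miR-192-5p: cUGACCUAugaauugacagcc
miR-192-3p: cUGCCAAUuccauaggucacag

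The libraries were made from RNA fragments and not from size-selected small RNA, so a TPM of such a locus counts reads assigned to the annotated precursor and is no measure of the mature form. Mir3061 (chromosome 11, 52126746 to 52126836, plus strand) had a TPM of 47.1, 0 and 63.6 in fractions 18, 19 and 21 of gradient 1 and of 0, 0 and 55.4 in gradient 2. Fraction 21 was the highest of the 3 both times, and the mean difference was 4.52 (SE 0.53, adjusted p = 0.17). Gm38670 (chromosome 7, 30552828 to 30552904, plus strand), the locus of miR-9769, had the opposite sign, with 0, 59.6 and 0 in gradient 1 and 55.9, 14.6 and 0 in gradient 2. Fraction 18 of gradient 1 was thus as low as fraction 21. Mir192 (chromosome 19, 6264844 to 6264932, plus strand), which yields a microRNA abundant in liver, was listed at 71.5 and 23.9 TPM in fraction 18 of the 2 gradients and at 0 in the other 4 libraries. Mir7652 (chromosome 11, 55501226 to 55501281, plus strand) had the same pattern, with 160 and 11.8 TPM in fraction 18 and 0 elsewhere. Mir568 (chromosome 16, 43640655 to 43640737, plus strand) had 0, 284 and 0 in gradient 1 and 105, 73.9 and 20.0 in gradient 2. Fraction 21 lay outside the range of its neighbors in both gradients for 1 of the 5 loci, Mir3061, and in gradient 1 either fraction 18 or fraction 19 was listed at 0 for every one of them.

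Of the 5 loci, 4 overlap an annotated exon of a protein-coding gene on the same strand, Mir3061 in Ppp2ca, Gm38670 in Hspb6, Mir568 in Zbtb20 and Mir7652 in G3bp1, so their reads cannot be told apart from reads of those exons. The host genes had smaller differences. Ppp2ca, the catalytic subunit of protein phosphatase 2A, had a difference of -0.057 in gradient 1 and -0.44 in gradient 2. G3bp1, a stress granule protein, had 0.17 and 0.64. Over all 42 microRNA loci tested, 40 were listed at 0 in at least 1 of the 6 libraries, against 160 of 10202 protein-coding genes. The SD of the difference over these loci was 3.42 in gradient 1 and 2.32 in gradient 2, against 0.48 and 0.29 over protein-coding genes. Small nucleolar RNAs, the guides of rRNA modification, were as scattered, with 21 of 22 annotated genes at 0 in some library. Scarna10, a guide RNA of the Cajal body, had 120, 281 and 0 TPM in gradient 1 but 84.8, 68.5 and 104 in gradient 2.

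Structural RNAs of the nucleus and nucleolus also varied between these fractions. Rmrp, the RNA of the RNase MRP enzyme, had 108, 321 and 131 TPM in fractions 18, 19 and 21 of gradient 1 and 715, 810 and 497 in gradient 2, with a mean difference of -0.56 (SE 0.14, adjusted p = 0.78). Only gradient 2 had fraction 21 below both neighbors. Rpph1, the RNA of RNase P, had 376, 1409 and 709 TPM in gradient 1 and 534, 393 and 520 in gradient 2. The U12 RNA gene Rnu12 (chromosome 15, 83149644 to 83149794, plus strand), part of the minor spliceosome, had 24.1, 23.9 and 3.64 TPM in gradient 1 and 0, 19.3 and 0 in gradient 2. Rn4.5s had 33.2, 90.2 and 16.1 TPM in gradient 1 and 142, 47.5 and 35.5 in gradient 2, and it was the only one of the 8 small RNA and histone genes named above, besides Hist1h2bl, for which fraction 21 was below both neighbors in both gradients and no library was at 0. The nuclear long noncoding RNA Malat1 differed by 0.22 in gradient 1 and by -0.26 in gradient 2, in opposite directions.

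Since single genes rarely passed the test, the groups below are described by how many members had fraction 21 outside the range of fractions 18 and 19 in both gradients and on the same side. Of all 10778 genes, 1071 (9.94%) were above both neighbors in both gradients and 1790 (16.6%) were below both. After quantile normalization the shares were 13.9% and 12.1%. No count over a list was tested.

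The mRNAs of cytosolic ribosomal proteins, which encode the small basic proteins of both ribosomal subunits, mostly had lower values in fraction 21. Of 85 tested, 35 were below both neighbors in both gradients and 0 were above, while 56 had a negative difference and 1 a positive difference in both gradients. The median difference was -0.27 in gradient 1 and -0.16 in gradient 2, and after quantile normalization it was -0.23 and -0.12. Against fraction 19 alone it was -0.26 and -0.039, with 39 negative and 9 positive in both gradients. None passed the test (lowest adjusted p = 0.78, limma). Rpl39 (chromosome X, 37082520 to 37085402, minus strand), one of the smallest ribosomal proteins, had 47.7, 130 and 29.3 TPM in fractions 18, 19 and 21 of gradient 1 and 153, 130 and 97.6 in gradient 2. Fraction 21 was the lowest of the 3 in each gradient, by a mean difference of -0.96 (SE 0.22, adjusted p = 0.78). Rpl36a, of the large subunit, had 133, 219 and 68.8 TPM in gradient 1 and 173, 168 and 126 in gradient 2. The largest positive values belonged to 2 paralogs of ribosomal protein genes. Rpl22l1 had 0.235, 17.9 and 14.5 TPM in gradient 1 and 26.9, 48.1 and 30.6 in gradient 2, so fraction 21 lay between its neighbors both times. Rps4l had 39.6, 37.4 and 35.7 in gradient 1 and 4.54, 9.17 and 13.4 in gradient 2, in opposite directions. The mRNAs of mitochondrial ribosomal proteins, which are made in the cytosol and imported, were similar, with 23 of 78 below both neighbors in both gradients, 0 above, and medians of -0.17 and -0.12 (-0.16 and -0.029 against fraction 19 alone). Mrpl42 had 26.4, 42.2 and 16.0 TPM in gradient 1 and 47.1, 42.1 and 28.7 in gradient 2.

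Nuclear-encoded mRNAs of the respiratory chain gave the same picture. For complex I, the NADH dehydrogenase, 17 of 37 were below both neighbors in both gradients and 1 was above, and the median difference was -0.33 in gradient 1 and -0.14 in gradient 2. Against fraction 19 alone the medians were -0.28 and -0.058, with 20 negative and 6 positive in both gradients, against 23 and 2. For complexes III and IV and the ATP synthase, 14 of 44 were below and 1 was above, with medians of -0.17 and -0.20 (-0.088 and -0.068 against fraction 19 alone). Usmg5 (chromosome 19, 47083464 to 47090647, minus strand), a small membrane subunit associated with the ATP synthase, had 281, 357 and 211 TPM in gradient 1 and 405, 403 and 203 in gradient 2. Its fraction 21 was the lowest of the 3 in both, with a mean difference of -0.79 (SE 0.16, adjusted p = 0.78). Atp5k (chromosome 5, 108433244 to 108434448, minus strand), the small e subunit of the ATP synthase, had 319, 454 and 195 TPM in gradient 1 and 666, 523 and 397 in gradient 2. Ndufa5, an accessory subunit of complex I, had 266, 263 and 126 TPM in gradient 1 and 270, 218 and 208 in gradient 2. Members with the largest positive values were of several sizes. Ndufb3, a small accessory subunit of complex I, had 131, 101 and 130 TPM in gradient 1 and 141, 118 and 129 in gradient 2, between its neighbors both times. Ndufv1, the flavoprotein that accepts electrons from NADH, had 788, 825 and 842 TPM in gradient 1 and 645, 627 and 726 in gradient 2, above both neighbors each time. Atp5a1, the alpha subunit of the ATP synthase, had 2502, 2466 and 2592 TPM in gradient 1 and 2502, 2583 and 2806 in gradient 2. Atp5b, the beta subunit, was split, with 4111, 3994 and 4177 TPM in gradient 1 and 4047, 3515 and 3284 in gradient 2. Over the 43 members of complexes III to V with a known coding length, Spearman's rho between coding length and the mean difference was 0.67, the highest of the 24 lists for which it was computed, with 0.52 in gradient 1 and 0.31 in gradient 2.

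Small soluble proteins of the cytosol that bind lipids or metals, or are otherwise short, were a further such group. Since short members were chosen for this list, it gives no separate support for a relation with length. Of 30 tested, 12 were below both neighbors in both gradients and 2 were above, with medians of -0.21 and -0.17 (-0.19 and -0.067 against fraction 19 alone). Tmsb4x, thymosin beta 4, which binds actin monomers, had 76.5, 83.7 and 34.7 TPM in gradient 1 and 85.3, 86.2 and 60.6 in gradient 2. Fabp4, a fatty acid binding protein, had 19.0, 26.3 and 9.13 TPM in gradient 1 and 17.0, 15.7 and 14.0 in gradient 2. Ubb, a ubiquitin gene, had 3242, 2933 and 3898 TPM in gradient 1 and 2176, 2363 and 3187 in gradient 2, the highest of the 3 in both.

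Histone mRNAs had low values in fraction 21 of gradient 1 but hardly in gradient 2. Of 67 tested, 12 were below both neighbors in both gradients (17.9%, near the 16.6% of all genes) and 2 above (2.99%, against 9.94%). The median difference was -0.58 in gradient 1 and -0.058 in gradient 2. Against fraction 19 alone the median in gradient 2 was 0.037. Hist1h2bl, an H2B gene, had 6.96, 22.4 and 1.01 TPM in gradient 1 and 34.5, 24.5 and 9.48 in gradient 2, the lowest in both. Hist1h3h had 15.4, 19.6 and 23.8 in gradient 1 and 0.826, 5.52 and 12.7 in gradient 2, the highest in both. Histone genes of 1 class have near-identical coding sequences, and the division of reads between them is uncertain.

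Among the groups with higher values in fraction 21, the enzymes of cytosolic metabolism had the highest share of members above both neighbors among the gene lists (40.4%). After quantile normalization it was 31.6%, under the 39.1% of aminoacyl-tRNA synthetases and the 35.3% of plasma membrane carriers and receptors. Of 57 tested, 23 were above both neighbors in both gradients and 1 was below, and the median difference was 0.11 in gradient 1 and 0.24 in gradient 2. None passed the test. Ass1, argininosuccinate synthase of the urea cycle, had 9112, 7264 and 9230 TPM in fractions 18, 19 and 21 of gradient 1 and 13518, 14513 and 20082 in gradient 2. Fraction 21 was the highest of the 3 in each gradient, but in gradient 1 by little. Eno1, the glycolytic enolase, had 768, 547 and 764 TPM in gradient 1 and 562, 607 and 916 in gradient 2. G6pdx, which opens the pentose phosphate pathway, had 16.7, 18.5 and 20.3 TPM in gradient 1 and 7.67, 6.42 and 12.3 in gradient 2. Akr1c6, a hydroxysteroid dehydrogenase, was at the other end of the list with 2933, 4510 and 3036 in gradient 1 and 4273, 4386 and 2901 in gradient 2.

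The mRNAs translated on the ER were divided. Of 98 secreted plasma proteins, 24 were above both neighbors in both gradients and 7 were below, with a median difference of -0.022 in gradient 1 and 0.16 in gradient 2. Agt (chromosome 8, 124556534 to 124569706, minus strand), angiotensinogen, the precursor of angiotensin, had the largest positive difference of the list. Its TPM was 16.9, 23.9 and 41.8 in fractions 18, 19 and 21 of gradient 1 and 78.0, 76.4 and 107 in gradient 2. Fraction 21 was the highest of the 3 in each, and the mean difference was 0.75 (SE 0.18, adjusted p = 0.78). Serpinf1 (chromosome 11, 75409769 to 75422701, minus strand), a secreted serpin, had 38.7, 33.4 and 54.5 TPM in gradient 1 and 135, 147 and 197 in gradient 2. Alb, serum albumin, had 2534, 3068 and 2579 TPM in gradient 1 and 5351, 6231 and 6877 in gradient 2, and its fraction 21 lay between its neighbors in gradient 1. Fn1, fibronectin, had 39.9, 32.2 and 39.3 TPM in gradient 1 and 52.5, 49.2 and 62.3 in gradient 2. Apolipoproteins were among the members with negative differences. Apoc2, the cofactor of lipoprotein lipase, had 211, 195 and 147 TPM in gradient 1 and 266, 220 and 187 in gradient 2. Apoc1 had 10113, 9401 and 7379 TPM in gradient 1 and 17049, 14428 and 12726 in gradient 2. Apoa2 had 9435, 8655 and 7568 TPM in gradient 1 and 18358, 16319 and 15030 in gradient 2. All 3 were thus lowest in fraction 21 of both gradients, and they were picked by their values or abundance, not as a class. Over the 97 members with a known coding length, rho between coding length and the mean difference was 0.28.

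**Figure D2:**
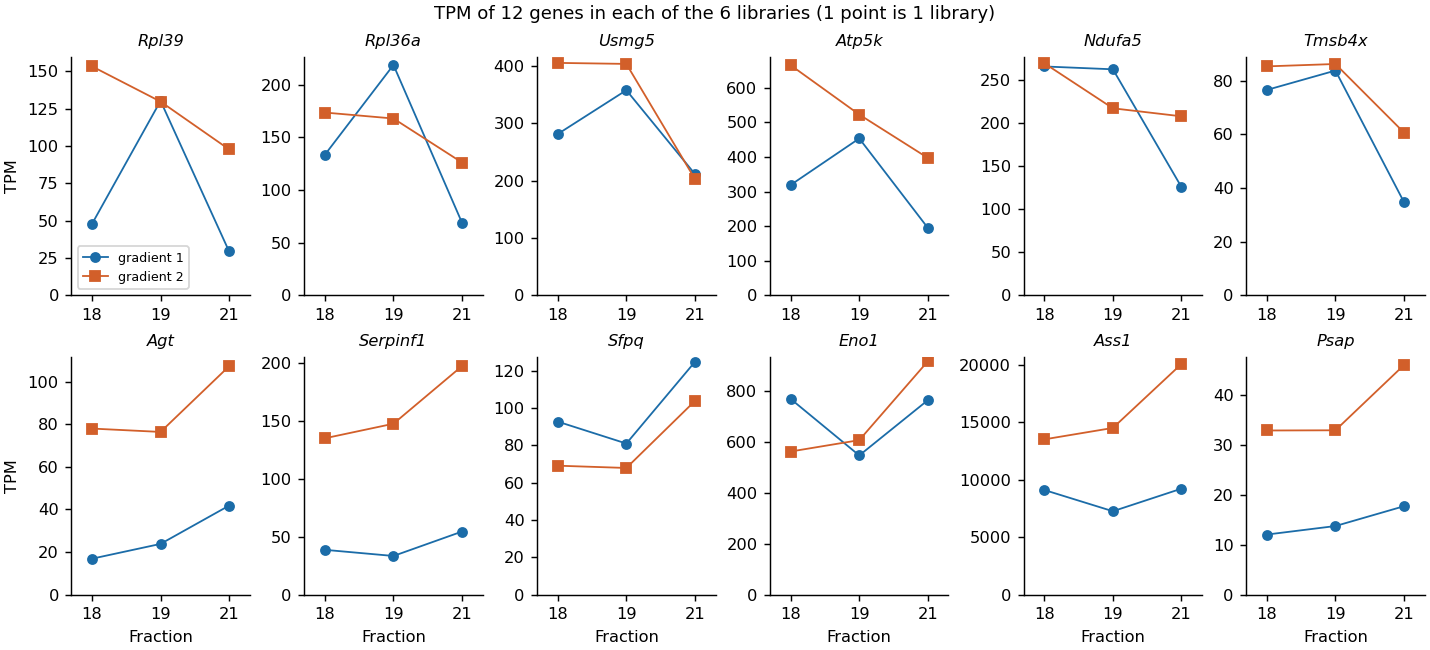
TPM (linear axis from 0) of 12 genes in fractions 18, 19 and 21, with circles for gradient 1 and squares for gradient 2, 1 point per library. The 6 genes of the upper row were lowest in fraction 21 of both gradients, and in the lower row fraction 21 was the highest point of both gradients for all but Eno1 in gradient 1, where fraction 18 had 768 TPM against 764.

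Cytochrome P450 mRNAs, which encode ER-bound enzymes of drug and steroid oxidation, had 11 of 58 above both neighbors in both gradients and 2 below. Their median was -0.0049 in gradient 1 and 0.20 in gradient 2. Against fraction 19 alone it was -0.16 and 0.15, with 18 positive and 13 negative in both gradients, against 19 and 4. Cyp8b1, which makes cholic acid, had 22.0, 16.5 and 26.5 TPM in gradient 1 and 11.8, 12.3 and 18.9 in gradient 2. Cyp2a5 had 14.2, 10.4 and 16.5 TPM in gradient 1 and 183, 204 and 257 in gradient 2. For both genes fraction 21 was the highest of the 3 in each gradient. Carriers and receptors of the plasma membrane had 13 of 51 above and 1 below, with medians of -0.021 in gradient 1 and 0.20 in gradient 2. Against fraction 19 alone their medians were -0.13 and 0.15, with 17 positive and 11 negative in both gradients, against 22 and 10. Lysosomal proteins with the vacuolar ATPase had 8 of 53 above and 1 below. Psap, the precursor of the saposins that assist lipid breakdown, had 12.1, 13.8 and 17.7 TPM in gradient 1 and 32.9, 33.0 and 46.0 in gradient 2. Grn, progranulin, had 7.74, 10.1 and 12.8 TPM in gradient 1 and 14.1, 15.8 and 20.6 in gradient 2. Atp6v0b, a small membrane subunit of the vacuolar ATPase, was lowest in fraction 21 of gradient 1, with 24.0, 18.2 and 13.7, and had 37.8, 26.8 and 26.9 in gradient 2. The UDP-glucuronosyltransferases and carboxylesterases, ER enzymes of conjugation and ester cleavage, had 5 of 26 above and 3 below. The medians of the lysosomal list and of this list were positive in both gradients, but against fraction 19 alone they were negative in gradient 1 (-0.053 and -0.14).

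The machinery of the ER itself had counts near or under the background. Of 56 genes of ER folding and translocation, 7 were above and 8 below, with medians of -0.11 and -0.019. Calr, the chaperone calreticulin, had 35.4, 32.4 and 41.2 TPM in gradient 1 and 107, 109 and 146 in gradient 2. Sec61g, the smallest subunit of the translocation channel, had 72.1, 130 and 32.2 TPM in gradient 1 and 146, 117 and 105 in gradient 2. These 2 genes were picked by their values, so they do not show a relation with length. Over the 56 members, rho between coding length and the difference was 0.15 in gradient 1 and 0.54 in gradient 2. Coat proteins of ER and Golgi vesicles had 3 of 49 above and 7 below. Major urinary proteins, small secreted lipocalins of mouse liver, had 1 of 21 above and 2 below, while their median difference was -0.30 in gradient 1 and -0.12 in gradient 2. Mup18 had 70.0, 172 and 83.9 TPM in gradient 1 and 628, 1284 and 505 in gradient 2, so that fraction 19 stood high in both. The Mup genes are near-identical, and reads may be divided among them arbitrarily. Against fraction 18 alone the medians of this list were 0.12 and 0.088, and those of the ER folding list were -0.037 and 0.058.

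**Figure D3:**
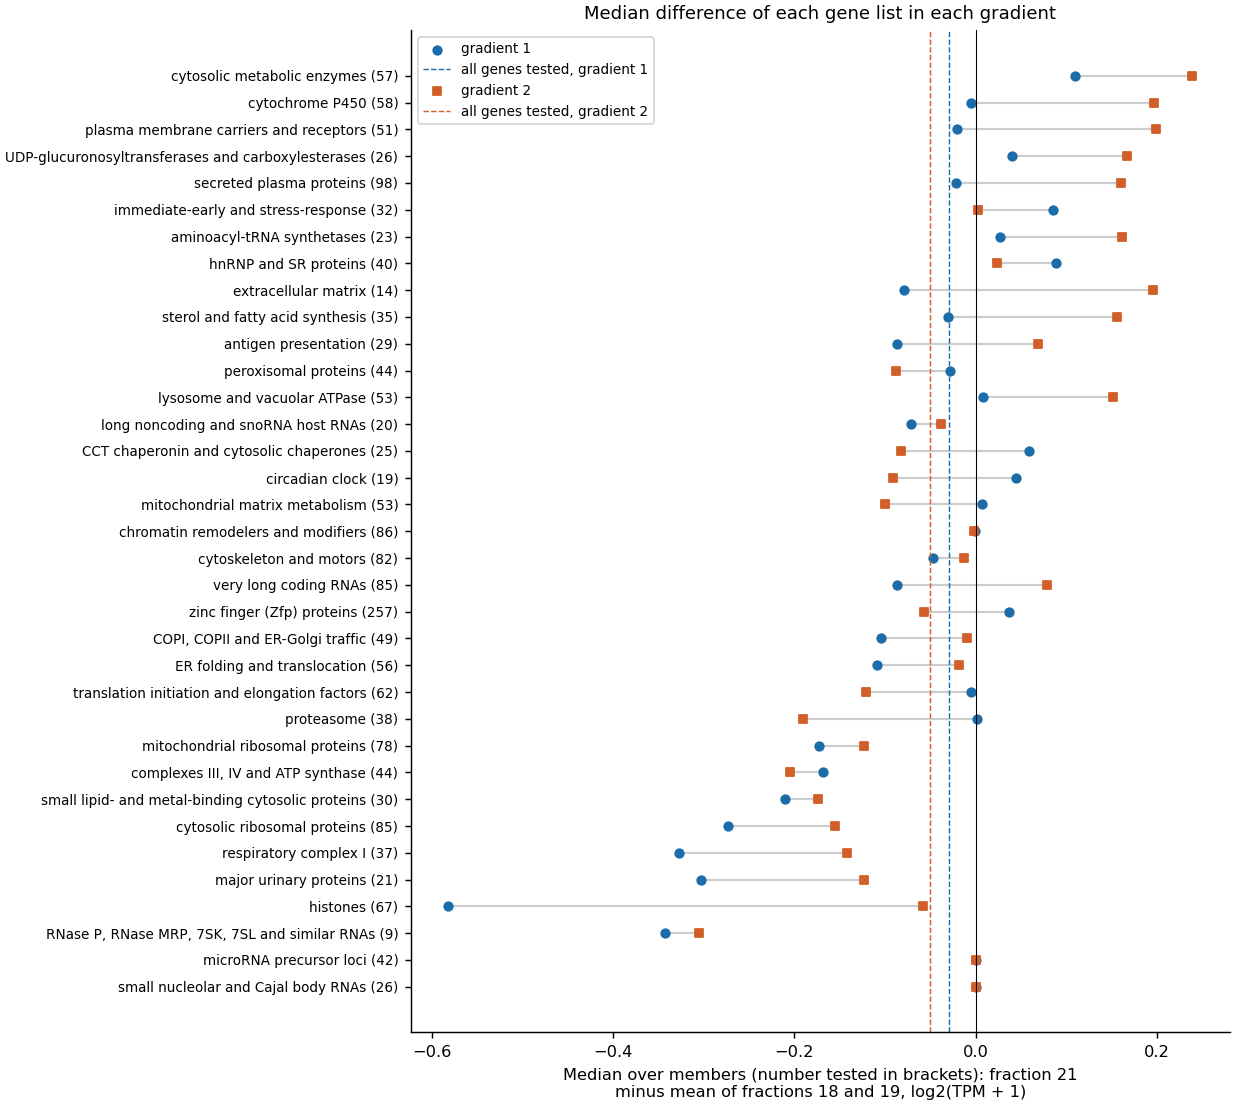
Median over members of the difference between fraction 21 and the mean of fractions 18 and 19 on the log2(TPM + 1) scale (x axis) for each gene list (rows, members tested in brackets), with circles for gradient 1, squares for gradient 2 and dashed lines for the medians of all genes (-0.029 and -0.050). Ribosomal proteins, the respiratory chain and small cytosolic proteins lie left of both lines in both gradients, and cytosolic metabolic enzymes lie right of both.

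Among other cytosolic groups, the medians of proteasome subunits and of chaperones had opposite signs in the 2 gradients. Proteasome subunits had 2 of 38 above both neighbors in both gradients (5.26%, against 9.94% of all genes) and 7 below (18.4%, near the 16.6% of all genes). Their median was 0.0021 in gradient 1 and -0.19 in gradient 2. Psma1, of the catalytic core, had 324, 344 and 394 TPM in gradient 1 and 290, 260 and 198 in gradient 2, the highest in one and the lowest in the other. Psmb1, also of the core, had 531, 576 and 496 TPM in gradient 1 and 470, 404 and 328 in gradient 2, the lowest in both. Adrm1 and Psmc5, of the regulatory particle, differed by 0.41 and 0.20 in gradient 1 and by -0.093 and -0.17 in gradient 2. Chaperones of the cytosol had 6 of 25 above and 3 below, with medians of 0.059 in gradient 1 and -0.083 in gradient 2. Hspa1a, an inducible Hsp70, had 2.52, 3.85 and 4.40 TPM in gradient 1 and 37.5, 46.4 and 63.9 in gradient 2, so the gradients themselves differed more than the fractions. Translation factors had 10 of 62 above and 11 below. Their medians were -0.0054 in gradient 1 and -0.12 in gradient 2, and 0.055 and -0.089 after quantile normalization. Aminoacyl-tRNA synthetases, which charge tRNAs with amino acids, had 5 of 23 above and 2 below. Their medians were positive in both gradients, with 0.027 and 0.16, and 0.059 and 0.19 after quantile normalization. Vars, the valyl-tRNA synthetase, had 37.1, 29.7 and 40.0 TPM in gradient 1 and 40.7, 34.2 and 49.0 in gradient 2.

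Enzymes of the mitochondrial matrix had 7 of 53 above and 7 below. Peroxisomal proteins had 4 of 44 above and 6 below. Cat, catalase, had 6489, 6519 and 6693 TPM in gradient 1 and 7012, 7478 and 9233 in gradient 2, while Pex2, a small membrane ubiquitin ligase of peroxisome assembly, had 15.6, 19.7 and 7.05 in gradient 1 and 16.5, 23.5 and 16.7 in gradient 2. Enzymes of sterol and fatty acid synthesis had 4 of 35 above and 2 below.

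Counts for nuclear regulators depended on the scale. Zinc finger genes of the Zfp series had 21 of 257 above and 32 below, and chromatin remodelers and modifiers had 10 of 86 above and 9 below, with medians of -0.0011 in gradient 1 and -0.0014 in gradient 2. After quantile normalization the zinc finger genes had 33 above and 18 below, and the chromatin genes had 15 above and 4 below. Chd4, a helicase of the NuRD complex, had 121, 112 and 67.3 TPM in gradient 1 and 48.5, 54.9 and 53.9 in gradient 2, so only gradient 1 had a low value. RNA-binding proteins of the hnRNP and SR families had 7 of 40 above and 4 below. Sfpq (chromosome 4, 127021324 to 127037013, plus strand), a splicing factor of paraspeckles, had the largest positive difference of these, with 92.7, 81.0 and 125 TPM in gradient 1 and 69.1, 67.9 and 104 in gradient 2. Fraction 21 was the highest of the 3 in each gradient, with a mean difference of 0.56 (SE 0.14, adjusted p = 0.78). Clock genes had 2 of 19 above and 4 below, and cytoskeletal genes 14 of 82 above and 10 below. Extracellular matrix genes had 3 of 14 above and 0 below, and genes of antigen presentation 5 of 29 above and 2 below. Immediate-early and stress genes had 2 of 32 above and 2 below. Their medians were 0.086 in gradient 1 and 0.0031 in gradient 2. Against fraction 18 alone they were -0.057 and -0.086, and against fraction 19 alone 0.14 and 0.11. mRNAs of very long proteins had 13 of 85 above and 10 below, with medians of -0.087 in gradient 1 and 0.079 in gradient 2, and the gradients had opposite signs.

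Markers of other cells of the liver were low. Kupffer cell and macrophage markers, 15 of 15 tested, summed to 153, 139 and 131 TPM in fractions 18, 19 and 21 of gradient 1. In gradient 2 they summed to 172, 172 and 200 TPM. Markers of sinusoidal endothelium, 14 of 16 tested, summed to 175, 150 and 155 in gradient 1 and to 111, 103 and 104 in gradient 2. Stellate cell and fibroblast markers, 8 of 14 tested, summed to 48.3, 53.4 and 43.2 in gradient 1 and to 48.6, 49.7 and 56.1 in gradient 2. Erythroid markers, 5 of 11 tested, summed to 170, 165 and 132 in gradient 1 and to 155, 130 and 109 in gradient 2. Of the 5 erythroid markers, 4 were below both neighbors in both gradients. The list holds globins and Alas2, the first enzyme of heme synthesis in red cells, among others. Lymphocyte markers were not tested, with 5 of 17 in the tables and a sum of at most 3.37 TPM. Cholangiocyte, neutrophil and platelet, and mesothelial markers had 3, 2 and 1 genes tested and sums of at most 12.9 TPM. Between the gradients, fewer cells of a type and less RNA per cell cannot be told apart, and the part of these markers in the results above was not tested.

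The groups with low values have short coding sequences. The small cytosolic proteins were listed partly for being short, so for them this was set beforehand. A relation with coding length was also seen over all coding genes. These include the members of the lists, and the relation was not computed without them. For the 1254 coding genes at 100 TPM or more on average and with a coding length in GENCODE, Spearman's rho between coding length and the difference was 0.32 in gradient 1 and 0.47 in gradient 2. For the 5956 genes at 10 TPM or more it was 0.17 and 0.28, and for all 10209 it was 0.11 and 0.20. In the fifth of the abundant genes with the shortest coding sequences (251 genes, 75 to 540 nt) the median difference was -0.26 in gradient 1 and -0.14 in gradient 2, and 104 genes were below both neighbors in both gradients against 2 above. In the fifth with the longest (251 genes, 1602 to 13515 nt) the medians were 0.013 and 0.14, with 20 below and 67 above. Against fraction 18 alone rho was 0.37 and 0.53, and against fraction 19 alone 0.22 and 0.35, so the sign did not rest on either reference. Among genes at 10 TPM or more, the 1112 that were below both neighbors in both gradients had a median coding length of 984 nt, the 657 above had 1676 nt, and all had 1254 nt.

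For the step from fraction 18 to fraction 19, rho with coding length was 0.071 in gradient 1 and 0.46 in gradient 2, so in gradient 2 the references differed from each other about as much by length as fraction 21 did from them. With the length of the whole transcript, rho of the difference was 0.25 and 0.31 for the abundant genes and 0.033 and 0.075 for all 10209. Within the lists the relation varied. Of 24 lists with at least 30 members of known coding length, 15 had a positive rho in both gradients, and the rho with the mean difference ran from -0.033 for cytochrome P450 to 0.67 for complexes III and IV with the ATP synthase. Cytosolic metabolic enzymes had -0.16 in gradient 1 and 0.57 in gradient 2.

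GC content was compared in the same way. For the same 1254 genes, rho between the GC content of the transcript and the difference was 0.20 in gradient 1 and 0.25 in gradient 2, but for the step from fraction 18 to fraction 19 it was -0.53 and -0.41. In gradient 1 the sign depended on the reference, with -0.16 against fraction 18 and 0.38 against fraction 19. In gradient 2 the values were 0.096 and 0.42. Fraction 19 thus held relatively more of the transcripts of low GC content than either neighbor in both gradients, and in gradient 1 the positive sign rested on it. Among the genes below and above the median GC content, coding length had a rho of 0.28 and 0.37 in gradient 1 and of 0.46 and 0.54 in gradient 2.

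**Figure D4:**
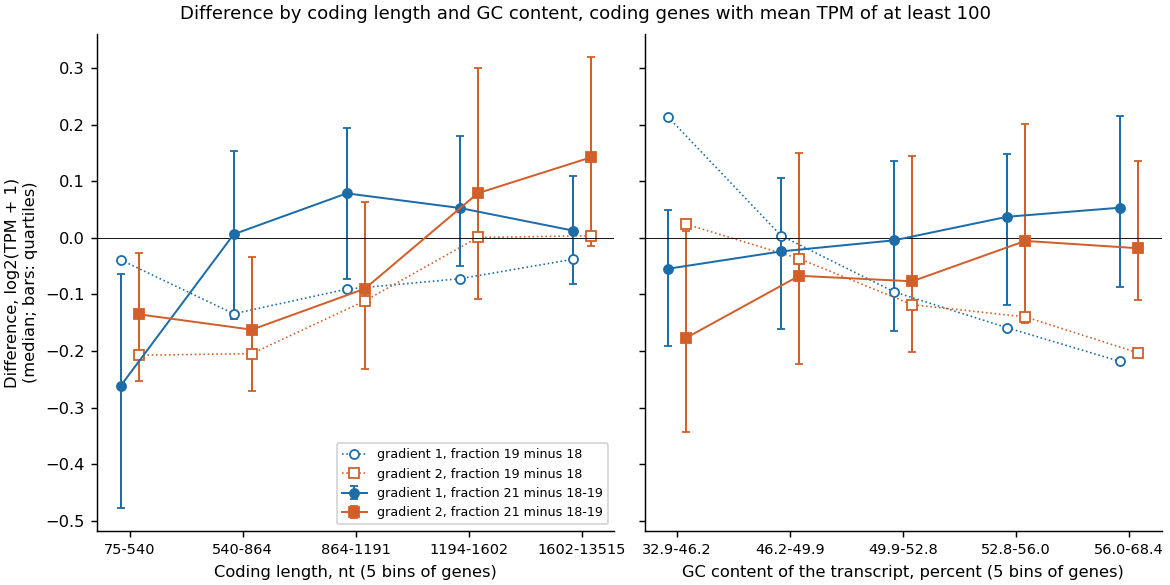
Median difference on the log2(TPM + 1) scale (y axis, bars for quartiles) in 5 bins of the 1254 coding genes at 100 TPM or more on average, by coding length (left) and GC content (right), with filled circles for gradient 1 and filled squares for gradient 2, and with open symbols for the step from fraction 18 to fraction 19. The shortest genes have negative medians in both gradients (-0.26 and -0.14), and by GC content the open symbols slope down while the filled ones do not.

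Libraries outside the comparison showed how these lists ran through the rest of the dense end. The mean of fractions 22 to 24 minus that of fractions 16 and 17, which shares no library with the comparison, was available in gradient 2 only. Its median was -0.58 for cytosolic ribosomal proteins (negative in 85 of 85), -0.54 for complex I (35 of 37), -0.57 for complexes III and IV with the ATP synthase (43 of 44) and -0.50 for mitochondrial ribosomal proteins (77 of 78), against -0.19 for all genes. Of all 10778 genes, 7267 were negative and 3490 positive in this span. The median was 0.39 for cytosolic metabolic enzymes (positive in 39 of 57), 0.67 for cytochrome P450 (56 of 58) and 0.51 for secreted plasma proteins (87 of 98). Of the 35 gene lists, 27 had the same direction here as at fraction 21 of gradient 2, 6 had the opposite direction and 2 had a median of 0. Among the 6, major urinary proteins had 0.37 in this span against -0.12 at fraction 21, and ER folding and translocation had 0.29 (positive in 41 of 56) against -0.019. Across the 1282 genes at 100 TPM or more, rho between this span and the difference at fraction 21 was 0.77 for gradient 2, the same gradient, and 0.29 for gradient 1. Over all 10778 genes these values were 0.45 and 0.14. Its rho with coding length was 0.62 over the abundant genes and 0.42 over all, and with GC content -0.017 and 0.038.

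In gradient 1 the approach to fraction 21 was less even. The median of ribosomal protein mRNAs, set against the mean of fractions 18 and 19, was 0.43 in fraction 14, 0.12 in fraction 16, -0.037 in fraction 17 and -0.27 in fraction 21. In gradient 2 it was 0.92, 0.47 and 0.35 in fractions 14, 16 and 17, -0.16 in fraction 21 and -0.13 in fraction 24, so most of the span in gradient 2 lay before fraction 18. Cytosolic metabolic enzymes had -0.53 in fraction 14 and 0.11 in fraction 21 of gradient 1, and -0.58 and 0.24 in gradient 2, with 0.021 in fraction 24. For cytochrome P450 and secreted proteins the gradients differed, since in gradient 1 the median of secreted proteins stayed between -0.026 and 0.11 from fraction 14 to fraction 21, while in gradient 2 it was -0.52 in fraction 14 and 0.16 in fraction 21. Fraction 21 is the last library of gradient 1, and fraction 20 was sequenced in gradient 2 only.

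**Figure D5:**
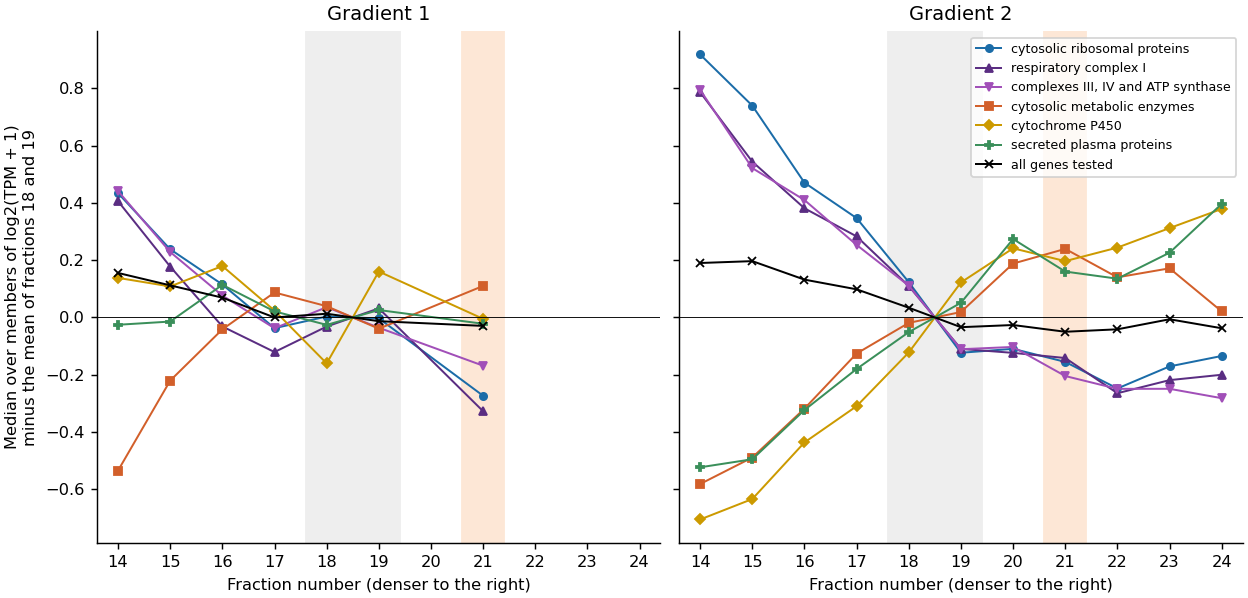
Median over the members of a list of log2(TPM + 1) minus the mean of fractions 18 and 19 (y axis) by fraction number (x axis, denser to the right), for gradient 1 (left) and gradient 2 (right), with fractions 18 and 19 shaded gray and fraction 21 shaded orange. In gradient 2 ribosomal protein and respiratory chain mRNAs run from 0.92 and 0.79 at fraction 14 to -0.16 and -0.14 at fraction 21, and enzyme and ER-translated mRNAs run the other way, while in gradient 1 the curves span less.

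The most abundant RNAs showed how far single values moved. Rn45s had 17802, 58992 and 38240 TPM in fractions 18, 19 and 21 of gradient 1 and 35708, 64619 and 43305 in gradient 2, so fraction 21 lay between its neighbors both times. Ftl1, the ferritin light chain, had 38618, 28100 and 46578 TPM in gradient 1 and 12422, 10542 and 10778 in gradient 2. Fabp1, the fatty acid binding protein of liver, had 35158, 35703 and 25849 TPM in gradient 1 and 25037, 21093 and 22883 in gradient 2. Hamp, the iron hormone hepcidin, had 5490, 4076 and 4417 TPM in gradient 1 and 12199, 10645 and 9073 in gradient 2. In none of these 4 was fraction 21 on the same side of both neighbors in both gradients. Among the other most abundant RNAs, Apoa2 and Apoc1 were below both neighbors in both gradients, and Ass1 and Hpd, an enzyme of tyrosine breakdown, were above both.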

How the data were processed

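RNA was measured in 6 libraries, fractions 18, 19 and 21 of 2 gradients of mouse liver that the study's methods call independent biological replicates, and the number of mice per gradient is not given in the sources used here. The authors made stranded libraries from RNA depleted of ribosomal RNA, demultiplexed the reads with bcl2fastq 2.16.0.10 (submitters' processing notes), and pseudo-aligned them with Kallisto to RefSeq transcripts of mm10. The authors deposited TPM per gene for each gradient, keeping genes over 1 TPM in at least 1 fraction. Kallisto's version, and the way gene values were built from its transcripts, are not given in the sources used here. TPM is a share, so an abundant RNA that takes more of a library lowers all others, and reads of near-identical genes are divided by estimation. For an RNA shorter than a sequenced fragment, few reads give a high TPM. The number of table columns matched to no sample was 0.

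From the deposited TPM, log2(TPM + 1) was taken, and fraction 21 was set against the mean of fractions 18 and 19 of the same gradient, for genes with a mean of 1 TPM or more over the 6 libraries. Differences on this scale understate those of low genes. The 2 differences per gene were fitted with limma 3.58.1 in R 4.3.3 (intercept only, eBayes with a trend on mean expression, two-sided, Benjamini-Hochberg adjustment over all 10778 genes, threshold 0.05). The gradient is thus the block, because the fractions of a gradient share 1 load of homogenate, and the deviations between gradients at fraction 21 and at fractions 18 and 19 correlated with r = 0.69 across genes. The fit was tested on simulated data. An exact permutation test of 2 differences cannot give a two-sided p under 0.5, so none was used for single genes. Depth and counting error are unknown, so precision rests on how far the 2 gradients differ.

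Gene lists were described by counts and medians and were not tested. Genes were named if they were the 12 largest rises or falls among called genes of 10 TPM or more, with free places given to differences of at least 1 in both gradients, if they were among the 2 largest positive or negative values of a list with at least 5 members tested, if they were among the 10 most abundant, or if the study or an earlier description of the series names them. 1110046J04Rik, Hist2h2aa1, Hist2h2aa2 and the host genes of microRNA loci lie outside this rule and were chosen after their values were seen, as was the count of genes outside the range of both neighbors. The members, the rule and the lists were chosen with earlier results of these data known. Coding length (that of the longest coding transcript, those matched to RefSeq first), GC content and positions came from GENCODE M21 for GRCm38, the assembly of mm10, which held 10525 of the 10778 genes, and mature microRNA sequences from RefSeq. Analyses used Python 3.11.15, NumPy 2.4.6, pandas 2.3.3 and SciPy 1.17.1. Alternatives were the pseudocount (0.1), the filter (none, or 10 TPM), quantile normalization, TPM rescaled without the 50 most abundant genes, either reference fraction alone, no trend, no block, the 6 libraries entered separately, and each gradient alone.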

Additional observations from a re-analysis of the deposited data

How the results depend on the processing

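With 2 gradients and no depth, small differences of single genes were not detectable here, and the limits below concern counts and medians. The 1 called gene, which is also the 1 called member of a list, was called with quantile normalization and without the 50 most abundant genes. Against fraction 19 alone 1 gene was called, but it was Mir3061. The number of higher genes and of called list members was 0 without the replicate block, with a pseudocount of 0.1, with the filter at 10 TPM, without a filter, against fraction 18 alone, with the 6 libraries separately and without the trend. At an unadjusted p under 0.05 these fits gave 49, 720, 433, 519, 603, 816 and 512 genes. Removal of the block also kept the number of lower genes at 0. Without the block and without fraction 21 of gradient 1, there were 19 higher and 5 lower genes and 23 list members. Without the block and without fraction 21 of gradient 2, there were 22 higher and 56 lower genes and 45 list members. In these fits the lone library of fraction 21 is assumed to vary like the others, and 21 of 24 and 60 of 78 called genes were at 0 in some library. Without fractions 18 and 19 of either gradient the counts were 0, 0 and 0.

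The count of differences of at least 1 in both gradients, 3 higher and 22 lower, was 21 and 51 with a pseudocount of 0.1, 1 and 8 with the filter at 10 TPM (fewer genes tested), 11 higher against fraction 18 alone, and 7 and 41 against fraction 19 alone. In 1 gradient alone, 38 to 203 genes were higher and 79 to 379 lower by at least 1. The median over all genes was 0.0064 with quantile normalization, -0.074 against fraction 18 and -0.020 against fraction 19. The median of complexes III and IV with the ATP synthase, -0.19, was -0.28 against fraction 18 and -0.062 against fraction 19. The median of cytosolic metabolic enzymes, 0.14, was 0.11 to 0.24 by gradient. The causes were not tested. Of 18 sets, all genes among them, with a negative median in both gradients, 9 kept it with quantile normalization and 15 without the 50 most abundant genes, and all 7 sets with a positive median in both kept it under either. Against fraction 18 alone 13 of the 18 and 6 of the 7 kept it, against fraction 19 alone 11 and 5, and at 10 TPM 12 of the 15 that still had at least 5 members and 5 of the 7.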
